A study of Homo sapiens with 6 samples.

Results

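The genes described here are the human genes that carry mRNA out of the nucleus and build the nuclear pore, 54 of the 29806 genes in the deposited count table. They were chosen by function, as the subunits of 11 named sub-complexes: THO, the adaptors of the TREX (transcription and export) complex, the export receptor, TREX-2, the cytoplasmic face of the pore with the factors of terminal export, the central channel, the inner ring, the Y complex, the nuclear basket, the membrane anchors, and the cap-binding and CRM1 export proteins. The rule uses no measured value, though results of these data were known when the list was drawn up. RNA-seq compared LNCaP parental cells, labelled wild type, with LNCaP cells in which *PRKRA*, the gene of the double-stranded RNA-binding protein PACT, had been knocked out by CRISPR (PACT KO). LNCaP cells are an established line from human prostate cancer, and both groups grew in RPMI-1640 medium with 10% fetal bovine serum, with no other treatment. PolyA RNA was taken from 3 dishes of each group 48 h after plating, at about 80% confluency. The PACT KO line came from a plasmid carrying Cas9 and a guide RNA, followed by sorting and the isolation of clones, and all 3 PACT KO dishes held cells of 1 clone. Differences between dishes are therefore all that the replicates measure, and the loss of PACT and any other property of that clone cannot be told apart.

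An mRNA leaves the nucleus as a particle of RNA and protein. The THO complex and its partners load onto the transcript as it is made, spliced and capped, adaptors such as ALYREF hand it to the receptor NXF1-NXT1, and helicases at the cytoplasmic face strip the receptor off again. The pore itself is a stack of rings in the nuclear envelope: Y complexes form the outer rings, the inner ring lines the membrane and holds the central channel, transmembrane nucleoporins anchor the whole, and a basket reaches into the nucleus. Pores are built anew as a cell grows and are taken apart and rebuilt around each mitosis, so proliferating cells make these subunits continually.

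The deposited values were whole reads per gene, with 19930060 to 24940838 reads on genes in a library. The targeted gene *PRKRA* stood at 38.8, 37.4 and 34.97 CPM (reads relative to the TMM-scaled library size) in LNCaP parental replicates 1, 2 and 3 and at 11.8, 13.6 and 12.02 CPM in the PACT KO replicates, a log2 fold change of -1.57 (FDR = 8.83e-21). All 6 libraries expressed the prostate markers *HOXB13*, *FOLH1*, *KRT8* and *KRT18*. Of 6 markers of basal cells and of other prostate lines, *KRT5* had no read in any library, *KRT14*, *TP63* and *CD44* stayed at or under 0.185 CPM, and *VIM* rose from a mean of 6.40 to 25.3 CPM. The summed level of those 6 was 15.4 to 16.6 CPM in LNCaP parental libraries and 36.6 to 39.7 CPM in PACT KO libraries. Leukocyte markers *PTPRC* and *CD3E* and the endothelial marker *PECAM1* were at or near 0, while *VWF* fell (-0.61), so the summed level of the 6 leukocyte and endothelial markers was 26.6 to 29.2 CPM against 17.2 to 19.1 CPM. Of 5 stromal markers *COL1A2* had no read, *DCN* and *LUM* were near 0 and *COL1A1* rose (0.52), with a summed level of 32.9 to 37.5 CPM against 44.6 to 50.1 CPM. All 12 proliferation markers were lower in PACT KO cells at FDR under 0.01, as were 18.8% of all genes tested. Their median log2 fold change was -0.51, and their summed level was 1342 to 1382 CPM against 943 to 998 CPM. PACT KO replicate 1 stood apart from the other PACT KO libraries on the second principal component, and the counts of members are given without it below. In bulk RNA, fewer cells in a given phase of the cell cycle and less RNA per cell cannot be told apart, and the part of any of these markers in the results that follow was not tested.

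**Figure D1:**
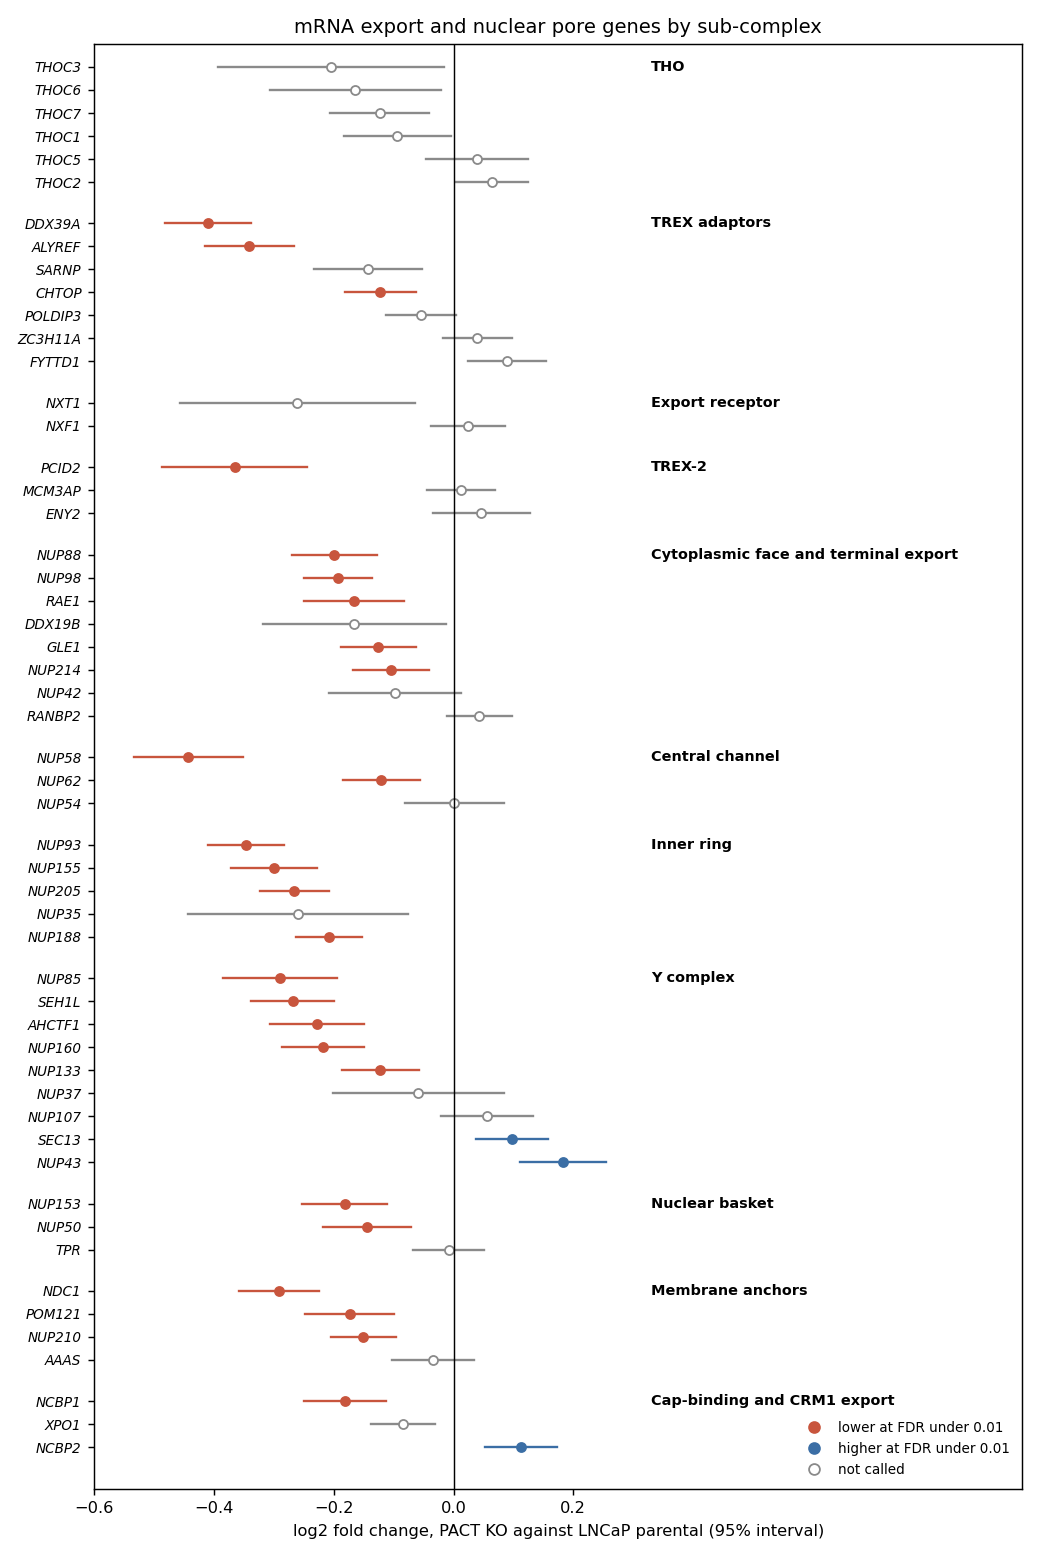
Log2 fold change of each of the 53 members tested, PACT KO against LNCaP parental, with its 95% interval, grouped by sub-complex. Filled red points are lower and filled blue points higher at FDR under 0.01, and open points were not called; most points lie left of 0, from -0.44 for *NUP58* to 0.18 for *NUP43*.

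Of the 54 members, 53 had enough reads to be tested, 26 were downregulated in PACT KO cells, 3 were upregulated and 24 were not called at FDR under 0.01 (edgeR quasi-likelihood test, 3 libraries per group). Across all 14462 genes tested, 18.8% were lower and 15.3% were higher by the same rule, so the downregulated share of the members, 49.1%, stood above that background and the upregulated share, 5.66%, below it. Among the 9689 genes whose mean level lay in the range of the members, 22.2% were lower. With library totals alone in place of TMM scaling, 2286 of all genes were lower and 2731 higher, against 2726 and 2214 with TMM, and 20 members were lower and 4 higher. The changes were small: the median log2 fold change of the members was -0.14, against 0.00 over all genes, and no member reached a 1.5-fold change at FDR under 0.01 by edgeR or DESeq2, a threshold that 5.72% of all genes passed. At an unadjusted p under 0.05, 35 members were lower and 5 higher. The share of all genes at that p was not counted, so these numbers have no background beside them. Taken one PACT KO library at a time, the median log2 ratio of the members to the parental mean was -0.13, -0.14 and -0.14. All 3 PACT KO libraries lay below all 3 LNCaP parental libraries for 34 of the 53 members (64.2%, against 27.2% of all genes) and above them for 5 (9.43%, against 25.1%). Without PACT KO replicate 1, 22 members were lower and 3 higher.

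**Figure D2:**
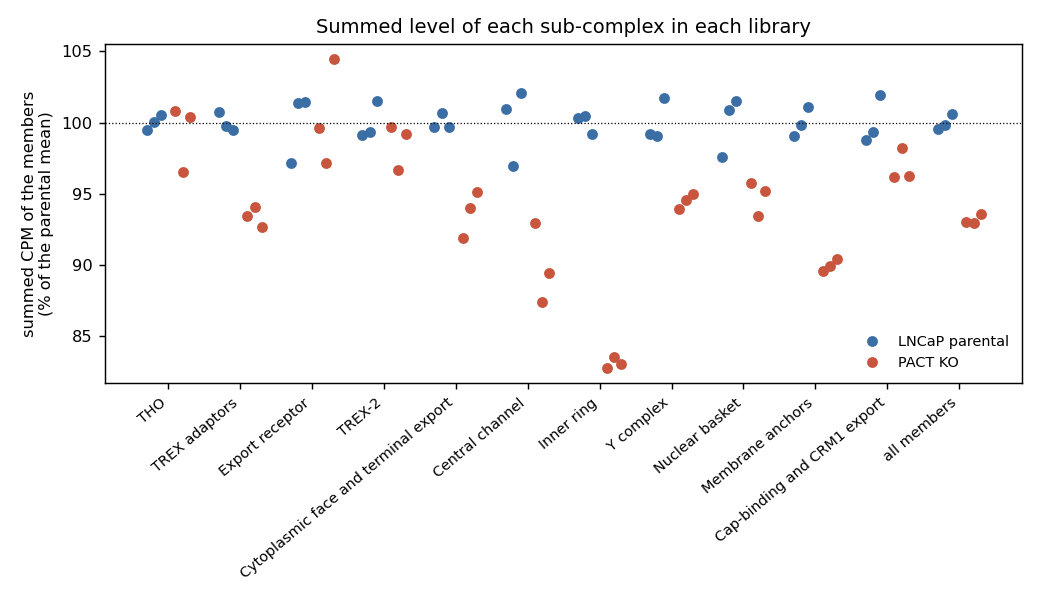
Summed CPM of the members of each sub-complex in each library, as a percentage of the LNCaP parental mean; blue points are LNCaP parental replicates and red points PACT KO replicates 1, 2 and 3 from left to right. The inner ring shows the widest gap, with the PACT KO libraries at 82.8%, 83.6% and 83.05%, while the groups overlap for THO, the export receptor and TREX-2.

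Summed over its members, the level in PACT KO libraries lay below every LNCaP parental library for 8 of the 11 sub-complexes. Of all single genes tested, 27.2% lay that way. The share of comparable sums of other genes was not counted, so the 8 have no like background beside them. The summed inner ring stood at 83.1% ± 0.385 (SD, n = 3) of the parental mean, the central channel at 89.9% ± 2.82 and the membrane anchors at 89.95% ± 0.427. Smaller differences were measured for the TREX adaptors (93.4% ± 0.692), the cytoplasmic face (93.7% ± 1.62), the Y complex (94.5% ± 0.503), the basket (94.8% ± 1.23) and the cap-binding and CRM1 proteins (96.9% ± 1.15). THO, the export receptor and TREX-2 stood at 99.2% ± 2.37, 100.4% ± 3.70 and 98.5% ± 1.62, with overlapping groups. These sums follow their most abundant members, and the differences between sub-complexes were not tested.

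In the inner ring every member was measured lower. The ring is the symmetric core of the pore: NUP205 and NUP188 are its large solenoid scaffolds, NUP93 links them to the channel, and NUP155 and NUP35 bind the membrane. All 5 members were lower in every PACT KO library than in any LNCaP parental library, and 4 of the 5 passed FDR under 0.01, with a median log2 fold change of -0.27. *NUP93* (chr16:56730105-56850286, plus strand, GRCh38) had 126, 122 and 119 CPM in LNCaP parental replicates and 97.8, 94.7 and 95.4 CPM in PACT KO replicates, so that the lowest parental dish stood more than 20 CPM above the highest PACT KO dish. Its log2 fold change was -0.35 (SE 0.03, FDR = 1.97e-11), or 21.4% lower. *NUP205* (chr7:135557919-135648757, plus strand) went from 158, 163 and 161 CPM to 131, 134 and 136 CPM, again without overlap (log2 fold change -0.27, SE 0.03, FDR = 1.39e-09). *NUP155* and *NUP188*, given to complete the ring, had log2 fold changes of -0.30 (FDR = 1.04e-08) and -0.21 (FDR = 8.72e-08). *NUP155* stood at 72.6, 73.4 and 74.9 CPM against 58.9, 60.7 and 59.8 CPM, and *NUP188* at 203, 200.3 and 199.99 CPM against 174, 177 and 171 CPM. The dishes of each group lay within 7 CPM of each other for both genes. *NUP35*, the least abundant of the ring per kb of exon, was measured at 12.3, 13.1 and 10.7 CPM and 9.35, 10.4 and 10.5 CPM. Its log2 fold change, -0.26 with a 95% interval of -0.44 to -0.08, lay within the range of its partners but missed the threshold (FDR = 0.0224), and it passed when LNCaP parental replicate 3, its lowest parental dish, was left out (FDR = 0.00691).

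The sequences around the start sites of the inner ring genes are printed because 4 of these 5 genes were called lower, beside those of *NUP58*, *DDX39A* and *ALYREF*, which are among the 5 members with the largest falls. Each runs from 150 bases before the annotated start to 30 bases after it, 5′ to 3′ on the strand of the gene, and comes from RefSeq (GRCh38.p14). Capitals mark matches on either strand to 9 short motifs, listed after the sequences. The windows are chr16:56729979-56730158 (plus strand) for *NUP93*, chr7:135557767-135557946 (plus strand) for *NUP205*, chr9:128947549-128947728 (plus strand) for *NUP188*, chr5:37371077-37371256 (minus strand) for *NUP155* and chr2:183124293-183124472 (plus strand) for *NUP35*. Those of the other genes are chr13:25301475-25301654 (plus strand) for *NUP58*, chr19:14419354-14419533 (minus strand) for *DDX39A* and chr17:81891558-81891737 (minus strand) for *ALYREF*.
NUP93: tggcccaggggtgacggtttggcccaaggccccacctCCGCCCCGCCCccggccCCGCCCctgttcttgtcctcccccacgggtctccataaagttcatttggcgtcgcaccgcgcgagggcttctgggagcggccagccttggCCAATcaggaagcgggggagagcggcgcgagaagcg
NUP205: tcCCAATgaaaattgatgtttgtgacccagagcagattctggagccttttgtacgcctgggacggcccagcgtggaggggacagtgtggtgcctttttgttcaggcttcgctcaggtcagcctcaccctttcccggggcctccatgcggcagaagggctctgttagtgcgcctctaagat
NUP188: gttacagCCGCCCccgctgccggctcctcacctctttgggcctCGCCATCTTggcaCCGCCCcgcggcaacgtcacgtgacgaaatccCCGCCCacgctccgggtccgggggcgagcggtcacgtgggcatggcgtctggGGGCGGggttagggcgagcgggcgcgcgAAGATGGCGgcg
NUP155: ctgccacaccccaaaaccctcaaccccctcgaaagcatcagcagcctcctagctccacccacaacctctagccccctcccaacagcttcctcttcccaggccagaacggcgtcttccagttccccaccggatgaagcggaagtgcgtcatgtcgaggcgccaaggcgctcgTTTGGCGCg
NUP35: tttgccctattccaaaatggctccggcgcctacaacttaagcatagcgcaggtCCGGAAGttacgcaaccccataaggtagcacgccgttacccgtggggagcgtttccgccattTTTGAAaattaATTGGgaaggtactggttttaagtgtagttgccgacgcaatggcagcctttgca
NUP58: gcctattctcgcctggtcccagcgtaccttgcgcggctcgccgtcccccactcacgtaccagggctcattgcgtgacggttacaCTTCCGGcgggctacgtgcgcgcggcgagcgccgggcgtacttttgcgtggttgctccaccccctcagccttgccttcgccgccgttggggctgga
DDX39A: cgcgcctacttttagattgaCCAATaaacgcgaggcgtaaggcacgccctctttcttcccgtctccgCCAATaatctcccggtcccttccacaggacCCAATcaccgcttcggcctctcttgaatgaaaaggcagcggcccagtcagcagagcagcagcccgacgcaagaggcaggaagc
ALYREF: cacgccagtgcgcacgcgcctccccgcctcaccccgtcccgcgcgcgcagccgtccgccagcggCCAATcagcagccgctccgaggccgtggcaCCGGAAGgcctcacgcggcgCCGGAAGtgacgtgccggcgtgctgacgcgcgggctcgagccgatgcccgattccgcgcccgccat

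The motifs searched were CCAAT (the box bound by NFY), CCGGAAG (ETS factors), AAGATGGCG (YY1), GGGCGG (SP and KLF factors), CGCATGCG (NRF1), TTTNGCGC (E2F), TTTGAA and its variant TTCGAA (the cell cycle element CHR) and TGACGTCA (CRE). None of them contains another, and none was found in all 5 inner ring windows. *NUP93*, *NUP205* and *NUP35* held a CCAAT box, and *NUP188* held the YY1 motif on both strands, beginning 107 bases before the start and at base 19 of the transcript. *NUP155* held the E2F motif from base 22 of the transcript. *NUP93* and *NUP188* also held SP and KLF motifs, and *NUP35* an ETS and a CHR motif. *DDX39A* had 3 CCAAT boxes and no other match, *ALYREF* had 2 ETS motifs and a CCAAT box, and *NUP58* a single ETS motif. Over the full 300 bases given for each gene, from 250 before the start to 50 after it, 47 of the 53 members tested had a sequence. The YY1 motif was in 8 of the 47 (17.0%), namely *THOC2*, *POLDIP3*, *ZC3H11A*, *SARNP*, *NUP88*, *NUP205*, *NUP188* and *NUP160*, against 3.92% of the promoters of all genes tested and 1.85% of all 27305 promoters. The ETS motif was in 18 (38.3%, against 19.1% of tested genes and 10.7% of all promoters) and the CCAAT box in 21 (44.7%, against 36.9% and 35.7%). The NRF1 motif and the CRE were in 4 members each (8.51%, against 4.03% and 3.25% of tested genes and 2.19% and 1.98% of all promoters), the CHR motif in 7 (14.9%, against 9.31% and 15.4%), its variant in 1 (2.13%, against 1.71% and 1.45%) and the E2F motif in 2 (4.26%, against 3.03% and 1.83%). The SP and KLF motif was in 27 (57.4%, against 69.6% and 44.6%). Members with the YY1 motif had a median log2 fold change of -0.17 and those without it -0.15. The medians were -0.19 and -0.12 for the ETS motif and also for the CHR motif. For the CCAAT box they were -0.16 and -0.13, and for the SP and KLF motif -0.15 and -0.13. Members with the NRF1 motif (-0.13 and -0.15), the E2F motif (-0.12 and -0.15) and the CRE (-0.10 and -0.16) differed in the other direction. The CHR variant was in 1 member alone (-0.29 and -0.14). These differences were not tested. The YY1 match of *NUP205* runs past the end of the printed window. These are matches of letters, and binding was not measured.

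**Figure D3:**
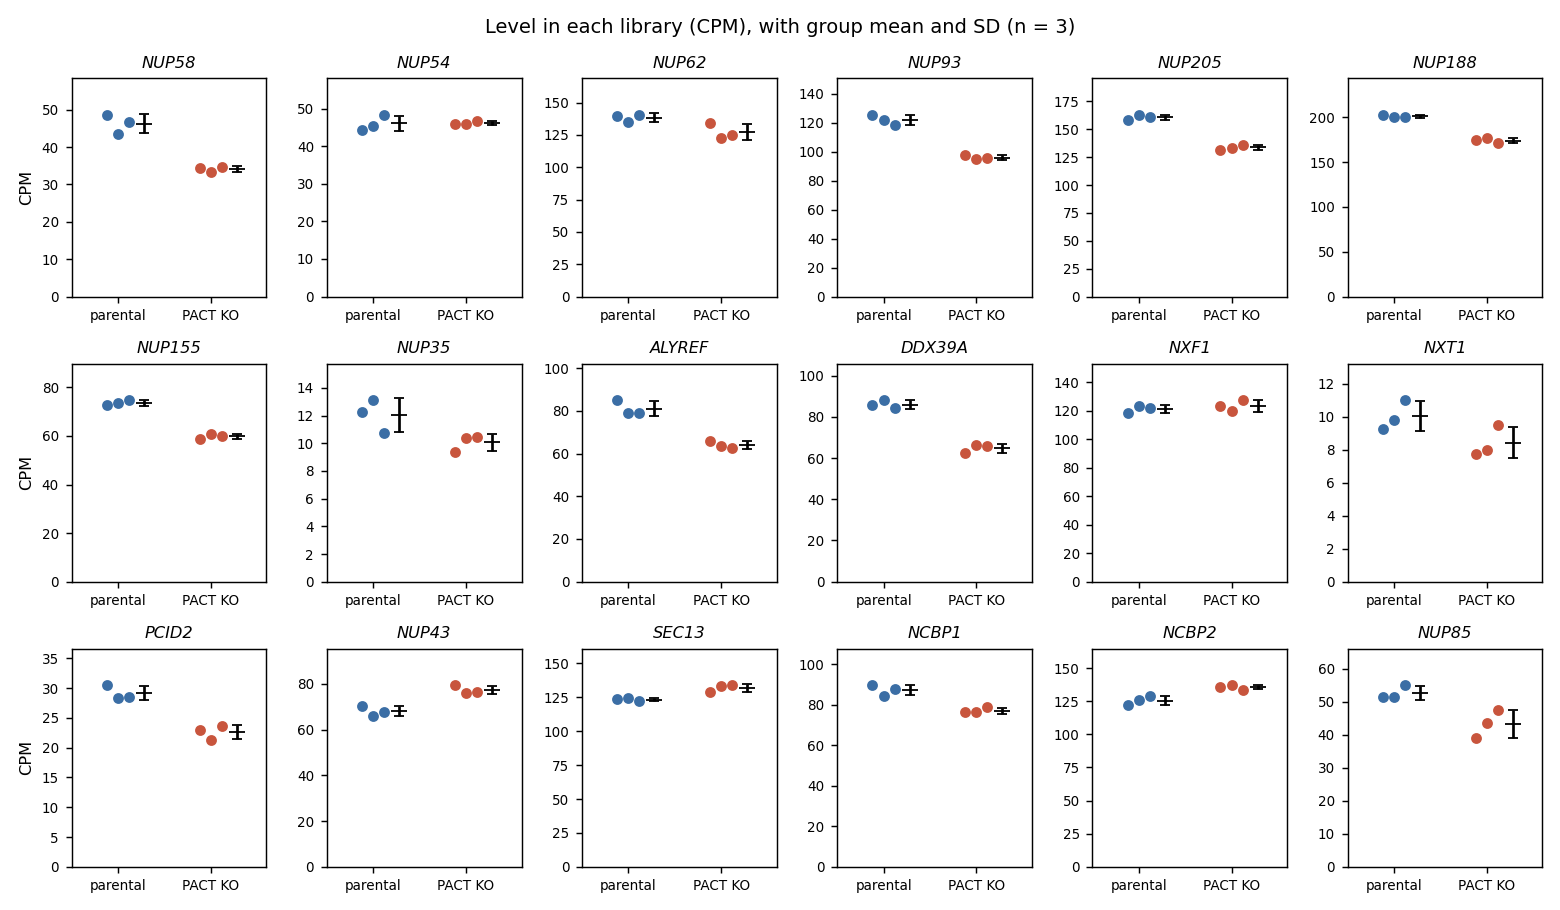
CPM of 18 members in each library, LNCaP parental in blue and PACT KO in red, with the group mean and SD (n = 3) in black and every axis starting at 0. The groups are far apart for *NUP58*, *NUP93* and *DDX39A*, overlap for *NUP54*, *NXF1* and *NXT1*, and are reversed for *NUP43*, *SEC13* and *NCBP2*.

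The central channel held both the largest fall of any member and one of the smallest differences. NUP62, NUP58 and NUP54 form together a complex whose phenylalanine-glycine repeats help to fill the pore and bar free passage. *NUP58* (chr13:25301524-25342416, plus strand) stood at 48.6, 43.6 and 46.6 CPM in LNCaP parental replicates and 34.4, 33.3 and 34.6 CPM in PACT KO replicates. The groups were widely separate, and the level was 26.4% lower (log2 fold change -0.44, SE 0.05, FDR = 3.82e-10). *NUP54*, named for contrast after its values were seen, stood at 44.4, 45.5 and 48.4 CPM and 45.98, 45.97 and 46.7 CPM, with PACT KO dishes inside the parental range (log2 fold change 0.00, 95% interval -0.08 to 0.08, FDR = 0.981). Within a library, reads of *NUP58* per read of *NUP54* came to 1.10, 0.958 and 0.962 in the parental and 0.747, 0.724 and 0.742 in the PACT KO dishes, a difference that no scaling of libraries can alter. *NUP62* lay between, at 139.9, 135 and 141 CPM and 134, 122 and 125 CPM (log2 fold change -0.12, FDR = 0.00259). PACT KO replicate 1, its highest PACT KO dish, came within 1 CPM of the lowest parental dish, and the call was lost without LNCaP parental replicates 1 or 3 or PACT KO replicates 2 or 3 (FDR = 0.0140, 0.0208, 0.0217 and 0.0180). The exons of *NUP62* share 23.6% of their bases with other annotated genes, most of all *ATF5* on the other strand. The use of strand in counting is not given in the sources used here.

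Of the membrane anchors, 3 of 4 were downregulated. NDC1, POM121 and NUP210 cross the nuclear membrane and hold the rings in place, and AAAS, the protein mutated in triple A syndrome, is recruited by NDC1. *NDC1* (chr1:53765460-53838860, minus strand) had 85.8, 85.4 and 86.9 CPM in LNCaP parental replicates and 70.5, 69.9 and 70.7 CPM in PACT KO replicates, with dishes of a group less than 2 CPM apart (log2 fold change -0.29, SE 0.03, FDR = 5.45e-09). *NUP210* had 206, 212 and 214 CPM and 189, 191 and 189 CPM, also without overlap (log2 fold change -0.15, SE 0.03, FDR = 2.41e-05). *POM121* was lower as well (log2 fold change -0.17, FDR = 2.66e-04), but it has a near-identical copy, *POM121C*, between which reads can be split. Of the exon bases of *POM121*, 18.9% overlap other annotated genes, most of all the pseudogene *NSUN5P2*. *POM121C* itself was lower (log2 fold change -0.12, FDR = 0.00841). *AAAS* was not called (log2 fold change -0.03, 95% interval -0.10 to 0.03).

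The Y complex moved in both directions. Its subunits NUP160, NUP85, SEC13, SEH1L, NUP107, NUP133, NUP37 and NUP43 form the outer rings, and AHCTF1, also called ELYS, seeds pore assembly on chromatin. Of the 9 members, 5 were downregulated, 2 upregulated and 2 not called. *SEH1L* (chr18:12947995-12987536, plus strand) had 88.7, 91.5 and 90.6 CPM in LNCaP parental replicates and 78.1, 73.4 and 72.95 CPM in PACT KO replicates (log2 fold change -0.27, SE 0.04, FDR = 6.16e-08). *NUP160* (chr11:47778087-47848555, minus strand) had 84.9, 88.8 and 89.5 CPM and 76.7, 75.7 and 73.8 CPM (log2 fold change -0.22, SE 0.04, FDR = 2.62e-06). Both genes were lower in every PACT KO dish. *NUP85* (log2 fold change -0.29, FDR = 5.56e-06), *AHCTF1* (-0.23, FDR = 1.08e-05) and *NUP133* (-0.12, FDR = 0.00236) were lower too. The PACT KO dishes spread widely for *NUP85*, at 39.1, 43.4 and 47.4 CPM, yet all lay below the parental 51.5, 51.5 and 55.03 CPM. The call of *NUP133* was lost without LNCaP parental replicate 3 or PACT KO replicates 1 or 3 (FDR = 0.0180, 0.0168 and 0.0104).

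*NUP43* and *SEC13* went the other way. *NUP43* (chr6:149724315-149746572, minus strand), a small propeller subunit of the Y complex, had 70.5, 66.00 and 67.8 CPM in LNCaP parental replicates and 79.4, 76.02 and 76.5 CPM in PACT KO replicates. Every PACT KO dish was above every parental dish (log2 fold change 0.18, SE 0.04, FDR = 7.89e-05), and this was the largest rise of any member, at 13.5%. Reads of *NUP85* per read of *NUP43*, a pair chosen after the values were seen, were 0.731, 0.780 and 0.811 in LNCaP parental libraries and 0.492, 0.571 and 0.620 in PACT KO libraries. *SEC13* (chr3:10300931-10321178, minus strand), which also forms part of the COPII coat of secretory vesicles, had 124, 124 and 122 CPM and 129, 133 and 134 CPM (log2 fold change 0.10, SE 0.03, FDR = 0.00812). Its groups did not overlap, but the rise of 7.003% lost its call without any one of LNCaP parental replicates 1, 2 or 3 or PACT KO replicates 2 or 3 (FDR = 0.0176, 0.0193, 0.0311, 0.0235 and 0.0267) and with the replicate number as a block (FDR = 0.0125). *NUP107* and *NUP37* were not called, with log2 fold changes of 0.06 (95% interval -0.02 to 0.13) and -0.06 (-0.20 to 0.08).

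At the cytoplasmic face, where the export receptor is removed from the mRNA, 5 of 8 members were downregulated and none upregulated. NUP98 binds mRNA with RAE1, and its gene also encodes the Y complex subunit NUP96 as part of the same precursor. *NUP98* (chr11:3675010-3797792, minus strand) had 177, 179 and 176 CPM in LNCaP parental replicates and 152, 158 and 156 CPM in PACT KO replicates, without overlap (log2 fold change -0.19, SE 0.03, FDR = 6.52e-07). *NUP88*, which sits beside NUP214 on the cytoplasmic ring, had 116, 113 and 106 CPM and 93.2, 95.5 and 102 CPM (log2 fold change -0.20, SE 0.04, FDR = 1.94e-05). Its groups did not overlap, and 17.8% of its exon bases overlap other annotated genes, most of all *RPAIN* on the other strand. *RAE1* (log2 fold change -0.17, FDR = 0.00140), *GLE1*, which activates the helicase DDX19B (-0.13, FDR = 0.00151), and *NUP214* (-0.10, FDR = 0.00801) were lower too. These 3 calls depended on single libraries and on the method. *RAE1* lost its call without LNCaP parental replicate 3 or PACT KO replicates 1 or 3 (FDR = 0.0149, 0.0146 and 0.0182), and *GLE1* without LNCaP parental replicate 3 or PACT KO replicate 1 (FDR = 0.0111 and 0.0159). *RAE1* also lost it by DESeq2 (FDR = 0.0150) and *GLE1* with library totals alone (FDR = 0.0141). *NUP214* lost its call in 11 of 16 alternatives, among them leaving out LNCaP parental replicates 2 or 3 or PACT KO replicates 1 or 3 (FDR = 0.0263, 0.0407, 0.0626 and 0.0302) and the replicate block (FDR = 0.0123). *DDX19B*, the helicase itself, had a log2 fold change of -0.17 that was not called (FDR = 0.0810), and its near-identical copy *DDX19A* one of -0.13 (FDR = 0.0120). *NUP42*, a partner of GLE1, was at -0.10 (95% interval -0.21 to 0.01). *RANBP2*, the filament protein of the cytoplasmic face, was at 0.04 (-0.01 to 0.10), with the caution that the *RGPD* genes are copies of it.

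In the nuclear basket, *NUP153* and *NUP50* were downregulated and *TPR* was not. NUP153 tethers the basket to the ring, NUP50 helps importins let go of their cargo, and TPR forms the basket filaments. *NUP153* (chr6:17615035-17706834, minus strand) had 77.4, 79.04 and 83.1 CPM in LNCaP parental replicates and 70.5, 71.5 and 69.1 CPM in PACT KO replicates (log2 fold change -0.18, SE 0.04, FDR = 7.73e-05). *NUP50* had 69.8, 68.6 and 66.4 CPM and 63.5, 60.98 and 60.5 CPM (log2 fold change -0.15, SE 0.04, FDR = 0.00159). Neither gene's groups overlapped, and the call of *NUP50* was lost without LNCaP parental replicate 1 or PACT KO replicate 3 (FDR = 0.0109 and 0.0118). The log2 fold change of *TPR* was -0.01, with a 95% interval of -0.07 to 0.05.

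Among the adaptors of TREX, the 2 most abundant members per length had the largest falls. The helicase DDX39A and its relative DDX39B open the way for ALYREF to bind the mRNA, and ALYREF then recruits NXF1. *DDX39A* (chr19:14408851-14419383, minus strand) had 85.6, 88.2 and 84.1 CPM in LNCaP parental replicates and 62.3, 66.2 and 65.6 CPM in PACT KO replicates, 24.7% lower (log2 fold change -0.41, SE 0.04, FDR = 5.90e-12). *ALYREF* (chr17:81887844-81891586, minus strand) had 85.1, 79.1 and 78.9 CPM and 66.01, 63.3 and 62.4 CPM, 21.04% lower (log2 fold change -0.34, SE 0.04, FDR = 1.45e-09). For both genes the gap between the groups exceeded the spread within either. *CHTOP*, a partner of ALYREF in the complex, was also lower (log2 fold change -0.12, FDR = 0.00107). *SARNP* (log2 fold change -0.14) stood just outside the threshold at FDR = 0.0102 and passed it without LNCaP parental replicate 2 (FDR = 0.00705). Of its exon bases, 79.3% are shared with other annotated genes, most of all *AC023055.1* on the same strand. *POLDIP3*, *ZC3H11A* and *FYTTD1*, further adaptors, had log2 fold changes of -0.05 (-0.11 to 0.00), 0.04 (-0.02 to 0.10) and 0.09 (0.02 to 0.15) and were not called, though *FYTTD1* was without PACT KO replicate 3 (FDR = 0.00594). Almost all exon bases of *ZC3H11A* (99.5%) overlap other genes, chiefly *ZBED6* within it. *DDX39B* was the 1 member not tested: it had 1, 2 and 4 reads in LNCaP parental libraries and 5, 5 and 2 in PACT KO libraries. Of its exon bases, 89.3% are shared with other annotated genes, most of all the readthrough gene *ATP6V1G2-DDX39B*, which had 0 reads in every library. The part of this overlap in the low count was not tested.

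The 6 THO subunits, the receptor pair and most of TREX-2 were not called. THO is the core that follows RNA polymerase II, and none of its subunits passed FDR under 0.01 by edgeR or DESeq2. At an unadjusted p under 0.05, 4 were lower and 1 higher, with no share of all genes counted at that p. The log2 fold changes of the 6 subunits were -0.20 for *THOC3*, -0.16 for *THOC6*, -0.12 for *THOC7*, -0.09 for *THOC1*, 0.04 for *THOC5* and 0.06 for *THOC2*. The largest of these, that of *THOC3*, rested on the lowest levels of any member tested per length, 9.25, 8.79 and 8.40 CPM in LNCaP parental replicates and 7.65, 7.52 and 7.77 CPM in PACT KO replicates, with a 95% interval of -0.39 to -0.02. Its dishes did not overlap, as was true of *THOC6* and *THOC7*. *NXF1* (chr11:62792123-62806302, minus strand), the receptor that carries most mRNA through the pore, stood at 118, 123 and 122 CPM and 123, 119 and 128 CPM (log2 fold change 0.02, 95% interval -0.04 to 0.09), with overlapping groups. *NXT1*, its small partner, had 9.25, 9.80 and 11.02 CPM and 7.77, 7.98 and 9.50 CPM, with 1 PACT KO dish above the lowest parental dish. The log2 fold change of *NXT1* was -0.26 (95% interval -0.46 to -0.07, FDR = 0.0313), and it was called only without PACT KO replicate 3, its highest PACT KO dish (FDR = 0.00714). Reads of *NXT1* per read of *NXF1* were 0.0782, 0.0796 and 0.0903 in LNCaP parental libraries and 0.0632, 0.0668 and 0.0745 in PACT KO libraries.

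TREX-2 links transcription to the pore. Its subunit *PCID2* (chr13:113177539-113208715, minus strand) was the third largest fall of any member, with 30.5, 28.4 and 28.6 CPM in LNCaP parental replicates and 23.03, 21.3 and 23.6 CPM in PACT KO replicates (log2 fold change -0.37, SE 0.06, FDR = 6.27e-06). The groups were almost 5 CPM apart at their nearest. Of the exon bases of *PCID2*, 16.3% overlap other annotated genes, most of all *CUL4A* on the other strand. The scaffold *MCM3AP*, also called GANP, and *ENY2*, which TREX-2 shares with the SAGA complex, had log2 fold changes of 0.01 (-0.04 to 0.07) and 0.05 (-0.03 to 0.13).

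The cap-binding pair moved apart. NCBP1 and NCBP2 bind the cap of new transcripts as a dimer, with NCBP2 in contact with the cap and NCBP1 as its scaffold. *NCBP1* (chr9:97633626-97673748, plus strand) had 89.7, 84.5 and 87.8 CPM in LNCaP parental replicates and 76.3, 76.3 and 78.8 CPM in PACT KO replicates (log2 fold change -0.18, SE 0.04, FDR = 4.84e-05). *NCBP2* (chr3:196935406-196942597, minus strand) had 122, 126 and 129 CPM and 136, 137 and 134 CPM (log2 fold change 0.11, SE 0.03, FDR = 0.00271). *NCBP1* was lower and *NCBP2* higher in every PACT KO dish than in any parental dish, and the rise of *NCBP2*, 8.09%, lost its call without LNCaP parental replicate 1 or 2 (FDR = 0.0257 and 0.0115). Within a library, reads of *NCBP1* per read of *NCBP2* came to 0.735, 0.673 and 0.682 in the parental and 0.561, 0.556 and 0.589 in the PACT KO dishes. The ratios given for this pair and for the other 3 pairs were picked after the values were seen. That the groups did not overlap in any of them follows largely from this choice. An exact permutation test gave p = 0.1 for each, the smallest p it can give for 3 dishes against 3. *XPO1*, or CRM1, which exports proteins and some RNAs rather than bulk mRNA, lay just outside the threshold (log2 fold change -0.08, FDR = 0.0117) and inside it without PACT KO replicate 2 (FDR = 0.00339).

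**Figure D4:**
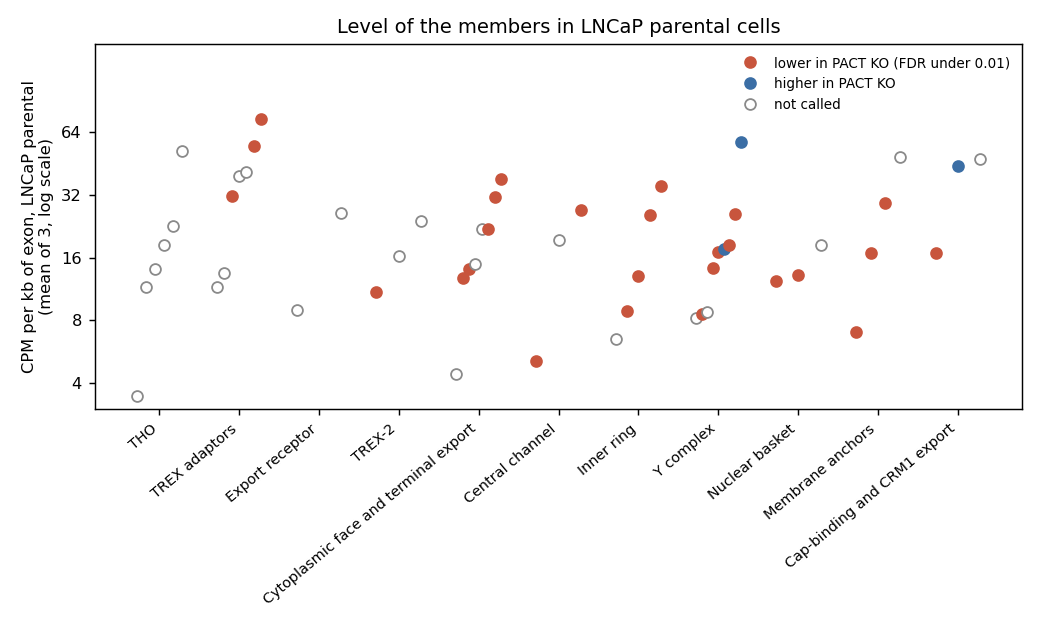
Level of each member tested in LNCaP parental cells, as CPM per kb of exon on a log scale (mean of 3 libraries), by sub-complex. Red points were lower in PACT KO cells, blue points higher, and open points not called; called and uncalled members are found from the bottom to the top of the range, from 3.45 for *THOC3* to 74.5 for *ALYREF*.

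Per kb of exon (GENCODE release 29 gene models), the members spanned a 21.6-fold range of level in LNCaP parental cells, with a median of 17.6 CPM per kb. *ALYREF* was the highest at 74.5 CPM per kb, followed by *SEC13* (57.5), *DDX39A* (55.1) and *THOC7* (51.97). *THOC3* (3.45), *DDX19B* (4.43) and *NUP58* (5.08) were the lowest. In PACT KO cells *ALYREF* stood at 58.7 CPM per kb and *SEC13* at 61.5. Partners of the same complex differed in level: *NXF1* stood at 26.1 CPM per kb and *NXT1* at 8.93, and *NUP54* at 19.5 and *NUP58* at 5.08. Such differences also depend on the gene model used, which includes long untranslated exons.

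Genes that work beside the members were read from lists chosen by function. The counts below stand beside a background of 18.8% lower and 15.3% higher over all genes tested. The Ran cycle sets the direction of transport of proteins, and 5 of 6 of its genes were downregulated and none upregulated, with *RCC1*, which charges Ran with GTP on chromatin, at a log2 fold change of -0.52 (FDR = 3.63e-15). *RANBP1* and *RANGAP1*, which discharge Ran in the cytoplasm, were at -0.30 and -0.29 (FDR = 1.12e-09 and 3.48e-10). Of 6 exportins 5 were lower, led by *CSE1L* (-0.30, FDR = 1.02e-10), *XPO6* (-0.26, FDR = 4.61e-09) and *XPOT*, the exporter of transfer RNA (-0.21, FDR = 1.78e-08). Among 11 importin betas and transportins, 6 were lower, led by *IPO5* (-0.29, FDR = 2.92e-09) and *KPNB1* (-0.20, FDR = 1.73e-08), and 1, *IPO8*, higher (0.11, FDR = 0.00317). Of 6 importin alphas tested, *KPNA2* was lower (-0.34, FDR = 2.25e-12), *KPNA5* was higher (0.33, FDR = 4.08e-04) and 4 were not called. The median log2 fold changes of these lists were -0.24 for the Ran cycle, -0.21 for the exportins, -0.14 for the importin betas and -0.07 for the importin alphas, beside 0.00 for all genes.

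On the mRNA side the background was the same, with 18.8% of all genes tested lower and 15.3% higher. All 3 SR proteins that serve as export adaptors were lower, *SRSF3* at -0.24 (FDR = 2.67e-09), *SRSF7* at -0.21 (FDR = 1.69e-06) and *SRSF1* at -0.20 (FDR = 3.63e-08). The exon junction complex, which splicing leaves on mRNA, had 3 of 5 genes lower and none higher, namely *EIF4A3* (-0.14), *RBM8A* (-0.12) and *MAGOH* (-0.24). Of 7 partners of TREX-2 and of the cap, *SRRT* (-0.24) and *ZC3H18* (-0.22) were lower and *CETN2* higher (0.17). Among the paralogs of members, *NXF2*, *NXF2B*, *NXF5* and *LUZP4* had no read in any library, and *NXF3* had at most 0.139 CPM. The 4 paralogs tested had a median log2 fold change of -0.12, and 1 of them, *POM121C*, was called lower. *NUP62CL* was at -0.35 and not called (FDR = 0.0138), and *NXT2* was at 0.00 (95% interval -0.16 to 0.16). In the list of pore maintenance, *LEMD2* was lower (-0.19), *TOR1AIP1* higher (0.25) and 3 of 5 not called. Of 9 genes of the nuclear envelope and lamina, 6 were lower, led by *LMNB1* (-0.48) and *LBR* (-0.47), and 2 were higher, *SYNE1* (0.50) and *SYNE2* (0.11).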

How the data were processed

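RNA-seq of 3 LNCaP parental and 3 PACT KO dishes was used, with groups taken from the labels. The authors deposited raw counts, whole reads per gene by NCBI Gene number, with no normalization. The submitters' processing notes name bcl2fastq 2.20.0.422, STAR 2.5.3a, StringTie 1.3.3, featureCounts 1.5.3 and hg38; which annotation and strand setting were used is not given in the sources used here. A row naming no gene, 0.0688% to 0.0708% of a library, was left out, and 27540 of 29806 genes (92.4%) were given a symbol. Where genes overlap, reads may be merged, dropped or split between them.

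Genes were kept by filterByExpr, libraries were scaled by TMM, and groups were compared with glmQLFit and glmQLFTest of edgeR 4.0.16 (R 4.3.3), 2-sided, with Benjamini-Hochberg adjustment over all 14462 genes tested. A gene was called at FDR under 0.01, the study's threshold, and 1.5-fold was its threshold for size. SE is the absolute log2 fold change divided by the square root of F, and 95% intervals take a normal distribution. CPM used the TMM factors. Depth limited the members of about 10 CPM most. In data simulated from these libraries with 14340 genes, the test recovered 39 of 50 genes changed 1.2-fold, 48 of 50 changed 1.3-fold and all 50 changed 1.5-fold, with 2 false calls. The simulation gave every gene and both groups the same dispersion and changed few genes, none of them near the floor. Pairs of PACT KO dishes differed more (chi-square per degree of freedom 2.21 to 4.22) than pairs of LNCaP parental dishes (1.64 to 2.11). The simulated figures are therefore not the power or error of the real comparison. For 3 dishes against 3 the smallest p of an exact permutation test is 0.10, so calls rest on the fit across genes.

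The members, sub-complexes, other lists and motifs were chosen with earlier results of these data known. Values per library are given for the 2 members with the smallest p among those called in each sub-complex, for members called higher and for the uncalled members with the largest changes, and genes given beyond this were chosen after their values were seen. From each other list, up to 3 genes of smallest p are given, beside copies of members and genes that rose. Coordinates and exon lengths are from GENCODE release 29 and start-site sequences from RefSeq (GRCh38.p14); where a gene had several start sites the first listed was used, and *NCBP1*, *NUP43*, *AHCTF1*, *GLE1*, *THOC7* and *ENY2* were not matched. Replicate numbers of the 2 groups did not pair the dishes (correlations of same-numbered deviations -0.25, 0.18 and -0.36). Alternatives were DESeq2 1.42.0, limma-voom (limma 3.58.1), edgeR with robust dispersion and its likelihood ratio test, 3 scalings, 2 filters, the replicate block, another FDR and each library left out. Figures used Python 3.11.15 and matplotlib 3.10.9.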

Additional observations from a re-analysis of the deposited data

How the results depend on the processing

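Over the 16 alternative fits and an FDR threshold of 0.05, the number of members downregulated ranged from 20 to 31 around 26, being 21 by DESeq2, 20 with library totals alone, 31 at FDR under 0.05 and 22 to 26 with a library left out, and no member passed 1.5-fold in any of them. Of the 26, 19 were called in all 16 fits, and of the 3 upregulated only *NUP43* was. The number upregulated was 1 to 3 with a library left out, falling to 1 without LNCaP parental replicate 1 or 2, where *SEC13* and *NCBP2* lost their calls, and 2 to 4 otherwise. The median log2 fold change, -0.143, was -0.140 with RLE scaling, -0.119 with upper quartile scaling, -0.114 with library totals alone, -0.130 with no filter on low counts, -0.138 with over 1 CPM in 3 libraries, and -0.146 to -0.125 with a library left out. The median over all genes tested rose too, from 0.0004 in the main fit to 0.0245 with upper quartile scaling and 0.0297 with library totals alone. No called member changed direction. With the replicate block, 25 members were lower and 2 higher (median -0.142), losing *NUP214* and *SEC13*; the numbers do not pair the dishes, and the block changed no other call. With upper quartile scaling, 2350 of all genes were lower and 2652 higher. By DESeq2, *RAE1*, *NUP214*, *NUP62*, *NUP133*, *NUP50* and *SEC13* lost their calls. With upper quartile scaling *NUP214*, *NUP62* and *NUP133* lost theirs. With library totals alone *CHTOP* (FDR = 0.0103), *GLE1*, *NUP214*, *NUP62*, *NUP133* and *NUP50* did. Among uncalled members *XPO1* was called in 4 fits, *FYTTD1* in 3, *SARNP* in 2 and *NUP35* and *NXT1* in 1 each. The causes were not tested. Members near 10 CPM (*NXT1*, *NUP35*, *THOC3*) have the widest intervals.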
